A study of Homo sapiens with 4 samples.

Results

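S100 proteins are small calcium-binding proteins with paired EF-hand loops. They mostly work as dimers: calcium opens a hydrophobic groove, and the dimer then binds and bridges partner proteins such as annexins, cytoskeletal proteins and chaperones. Most S100 genes lie in a cluster on chromosome 1 beside the genes of the epidermal barrier, and several members mark epithelial cells, whereas *S100A4* is known in colorectal cancer as a target of β-catenin/TCF transcription that promotes motility. The values of 10 S100 genes were followed here, namely *S100A2*, *S100A3*, *S100A4*, *S100A6*, *S100A10*, *S100A11*, *S100A13*, *S100A14*, *S100A16* and *S100P*. They were taken by gene symbol, from a list written with earlier results of these data known, and they are 10 of 20046 genes on the array and 17 of its 47321 probes.

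The samples were 2 arrays of HCT116-WT and 2 arrays of HCT116-MT, both untreated sublines of the human colorectal cancer line HCT116. Parental HCT116 cells are heterozygous for *CTNNB1*, which encodes β-catenin. By disruption of the other copy, HCT116-WT keeps the wild-type allele alone and HCT116-MT the mutant allele alone. Whether each subline is a single clone, and whether its 2 samples came from separate cultures, is not given in the sources used here. The p-values therefore set the difference between the lines against the spread within the lines, and that spread may be technical alone. The comparison asks which S100 transcripts differ between the wild-type and the mutant subline. A fall or a rise below means a lower or a higher value in HCT116-MT than in HCT116-WT. No parental array was among the samples, so which subline changed is not shown. The β-catenin allele and any other difference between the sublines cannot be told apart.

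Median intensities of the 4 arrays lay between 122 and 135, and 19604 to 20101 probes per array were detected, that is, had a detection p-value under 0.05 against the negative controls of the array. *CTNNB1* was detected on all 4 arrays, with 2555 and 1761 in HCT116-WT against 2893 and 2001 in HCT116-MT, a difference of 0.29 on the log2 scale (SE 0.22) that did not pass. Of 7 markers of intestinal epithelium 4 were detected on at least 2 arrays (*EPCAM*, *KRT8*, *KRT19* and *CDX2*), and *KRT18*, *VIL1* and *CDH17* were not. The summed intensity of the 7 markers was 26717 to 35894 in HCT116-WT and 17416 to 19352 in HCT116-MT, so that this epithelial sum moved with the S100 differences below, and its part in them was not tested. The largest part of the sum on every array came from *EPCAM*, at 23136 and 13960 in HCT116-WT against 8001 and 10668 in HCT116-MT. *EPCAM* was lower by the criteria given below (difference -0.92 on the log2 scale, SE 0.30, adjusted p = 0.445 with limma). *KRT8* (-0.35, SE 0.19) and *KRT19* (-0.60, SE 0.37) did not pass, and neither did *CDX2*, which had the higher mean in HCT116-MT (0.19, SE 0.23). Among markers of other cell types 3 of 6 for fibroblasts, 2 of 5 on the array for leukocytes and 1 of 3 for endothelium were detected on at least 2 arrays. These were *COL1A1*, *PDGFRB* and *DCN*, *CD14* and *LYZ*, and *VWF*, with *COL1A1*, *PDGFRB* and *VWF* detected on all 4 arrays (*COL1A1* at 379, 362, 316 and 315). *COL1A2*, *COL3A1*, *LUM*, *PTPRC*, *CD3E*, *CSF1R*, *PECAM1* and *CDH5* were not. The summed intensity of the full list was 1049 to 1115 in HCT116-WT and 997 to 1013 in HCT116-MT for fibroblast markers. For endothelial markers it was 367 to 418 in HCT116-WT and 323 to 361 in HCT116-MT. The sums of leukocyte markers overlapped between the lines (595 to 684 over the 4 arrays). In such bulk samples, fewer cells with a transcript and less transcript per cell cannot be told apart.

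Of the 10 genes 8 had a probe that was detected on at least 2 arrays, and 3 of these 8 were lower in HCT116-MT by the criteria of the study, which ask for p under 0.05 before adjustment together with more than a 1.5-fold difference (called the study thresholds below). *S100A14*, found mainly in epithelial cells, was 2.31-fold lower, *S100A11*, a partner of annexin A1, was 1.93-fold lower, and *S100A6*, known as calcyclin, was 1.86-fold lower. None of the 8 was higher at these thresholds. Of all 11875 genes tested 457 were lower (3.85%) and 411 were higher (3.46%); the split was 516 lower and 248 higher after median scaling and 605 and 130 without normalization, where the median of all genes shifted to -0.12. Of all genes 8 (0.0674%) had an adjusted p under 0.05 with limma, none of them an S100 gene. The S100 differences therefore did not pass adjustment over all genes, and at an unadjusted p under 0.05 limma gave 4 of the 8 as lower (4.75% of all genes) and 0 as higher. The fourth was *S100A13*, whose unadjusted p was not under 0.05 in 10 of 15 alternatives, among them every fit with an array left out.

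The promoters of these 3 genes and of *S100A16*, the gene next to *S100A14*, are shown. They allow the start regions of genes lower in HCT116-MT to be compared with that of a close neighbour that did not pass. The sequences are RefSeq windows from 250 bases before to 50 bases after the gene start on the minus strand of GRCh38.p14, at chr1:153616276-153616575 for *S100A14*, chr1:153613088-153613387 for *S100A16* (the first of its listed starts), chr1:152036955-152037254 for *S100A11* and chr1:153535942-153536241 for *S100A6*. Capitals mark CACCTG or its reverse complement CAGGTG, the E-box bound by ZEB1 and SNAI factors.
S100A14: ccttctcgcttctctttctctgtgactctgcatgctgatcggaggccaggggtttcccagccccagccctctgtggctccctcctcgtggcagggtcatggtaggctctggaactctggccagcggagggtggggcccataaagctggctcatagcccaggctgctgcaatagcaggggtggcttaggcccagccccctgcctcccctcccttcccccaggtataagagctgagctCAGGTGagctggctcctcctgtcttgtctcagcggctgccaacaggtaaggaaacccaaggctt
S100A16: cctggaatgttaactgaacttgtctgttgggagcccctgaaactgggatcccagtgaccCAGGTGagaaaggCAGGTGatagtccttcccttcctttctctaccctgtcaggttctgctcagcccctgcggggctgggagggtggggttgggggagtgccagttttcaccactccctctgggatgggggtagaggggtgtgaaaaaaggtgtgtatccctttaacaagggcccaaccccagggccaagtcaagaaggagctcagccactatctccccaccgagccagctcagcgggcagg
S100A11: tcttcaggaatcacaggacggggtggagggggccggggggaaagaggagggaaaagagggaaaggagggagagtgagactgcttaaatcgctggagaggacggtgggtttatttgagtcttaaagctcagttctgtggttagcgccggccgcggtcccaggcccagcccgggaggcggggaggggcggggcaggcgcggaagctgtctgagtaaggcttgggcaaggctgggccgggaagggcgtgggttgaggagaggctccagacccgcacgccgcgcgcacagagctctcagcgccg
S100A6: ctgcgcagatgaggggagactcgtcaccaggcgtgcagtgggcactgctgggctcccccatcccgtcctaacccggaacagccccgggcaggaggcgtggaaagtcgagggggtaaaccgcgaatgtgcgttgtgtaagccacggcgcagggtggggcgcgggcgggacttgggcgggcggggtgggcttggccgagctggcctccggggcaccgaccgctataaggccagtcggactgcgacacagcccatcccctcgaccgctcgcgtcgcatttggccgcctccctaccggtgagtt
In the *S100A14* window the E-box, read as CAGGTG, begins 14 bases before the start, and the *S100A16* window holds a pair that begin 191 and 178 bases before the start. The *S100A11* and *S100A6* windows hold no match. Over the 14 windows listed for the 10 genes, some of which overlap, CACCTG was found in 6, belonging to 5 genes, against 20.6% of 35116 windows of the same length in the table. The AP-1 motif TGANTCA, which reads the same on both strands, was found in 2 of the 14 (7.71% of all windows). The TCF/LEF motif CTTTGAT, searched on both strands, was found in 0 of the 14 (2.62% of all windows). Each count describes letters and says nothing of binding.

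*S100A14* encodes an epithelial S100 protein of the cytoplasm and cell membrane. Its intensity was 717 and 559 on the HCT116-WT arrays and 240 and 252 on the HCT116-MT arrays. Both HCT116-WT arrays were above both HCT116-MT arrays, with less distance within a line than between the lines: after quantile normalization the log2 values were 9.22 and 9.24 in HCT116-WT against 7.92 and 8.12 in HCT116-MT. The difference was a fall of 1.21 on the log2 scale (SE 0.19, 95% interval -1.68 to -0.73, unadjusted p = 7.70e-04 and adjusted p = 0.207 with limma), which ranks 44 of 11875 genes by p. With each array left out in turn it stayed between -1.30 and -1.11, and it was past the study thresholds in all 15 alternatives tried, with log2 fold changes from -1.59 to -1.11 and adjusted p from 0.160 to 1.00 (limma, or Student's t-test in 1).

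*S100A6* encodes a protein that binds the ubiquitin ligase adaptor CACYBP and annexin A11 and is induced when cells enter the cycle. It was bright on every array, at 19652 and 13607 in HCT116-WT against 9055 and 7970 in HCT116-MT, and the lower HCT116-WT array was above both HCT116-MT arrays. Normalized log2 values were 14.18 and 13.78 against 13.12 and 13.05, a fall of 0.89 (SE 0.22, 95% interval -1.43 to -0.36, unadjusted p = 0.00624 and adjusted p = 0.386 with limma). The HCT116-WT arrays were 0.40 apart and the HCT116-MT arrays 0.07, so that the 0.66 between the nearest arrays of the lines was larger than the distance within each. The call held in all 15 alternatives (adjusted p 0.174 to 1.00 with limma or, in 1, Student's t-test), with log2 fold changes from -1.09 to -0.70.

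*S100A11*, known as calgizzarin, joins annexin A1 in membrane repair and in growth control of keratinocytes. Its intensity was 3265 and 1855 in HCT116-WT against 1654 and 834 in HCT116-MT. The lines did not overlap, but replicate 2 of HCT116-WT and replicate 1 of HCT116-MT were close, 0.33 apart after normalization, while the arrays within HCT116-MT were 0.81 apart, a distance exceeded by 3.89% of all genes. The fall of 0.95 (SE 0.32, 95% interval -1.73 to -0.16, unadjusted p = 0.0253 and adjusted p = 0.474 with limma) was past the study thresholds. The log2 fold change was -0.54 with the second HCT116-MT array left out and -0.74 with the first HCT116-WT array left out, and in neither case past them. With Student's t-test on the same values it was not past them either.

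**Figure D1:**
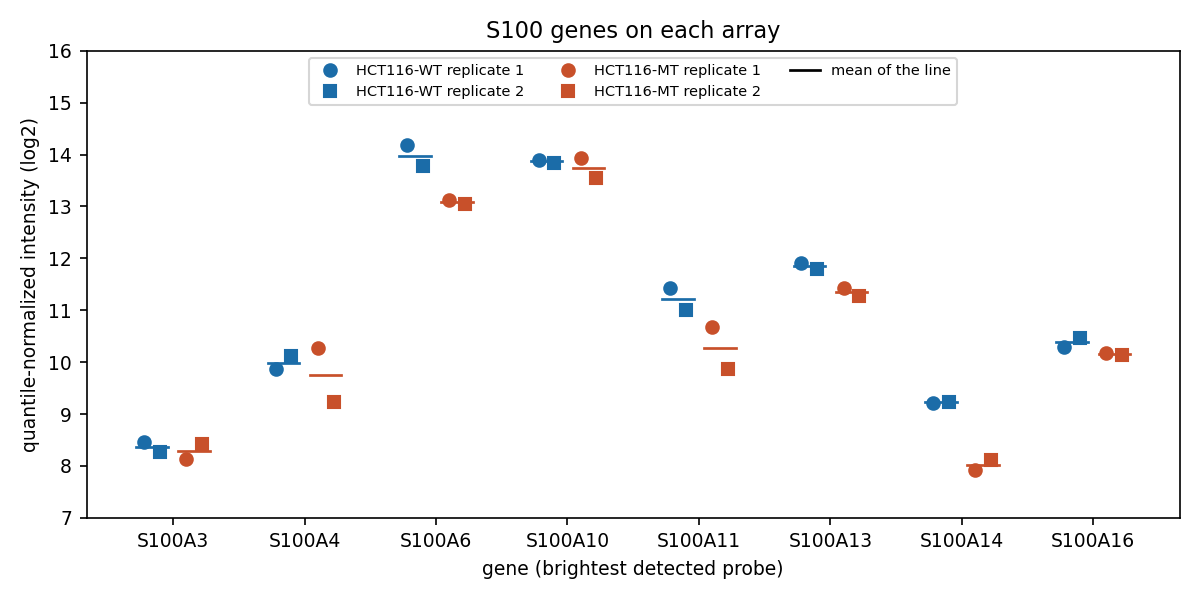
Quantile-normalized log2 intensity (vertical axis) of the 8 tested S100 genes (horizontal axis) on each array, with circles for replicate 1 and squares for replicate 2, HCT116-WT in blue and HCT116-MT in orange, and a line at the mean of each subline. Both HCT116-MT arrays lie below both HCT116-WT arrays for 5 genes, *S100A6*, *S100A11*, *S100A13*, *S100A14* and *S100A16*. The HCT116-MT arrays are 1.05 apart for *S100A4*, and levels of different genes are not comparable because their probes differ.

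*S100A13* is needed for the release of FGF1 and interleukin-1α from cells under stress, which leave without a signal peptide. It had 6 probes, of which 2 were bright. The brighter gave 4492 and 3180 in HCT116-WT against 2813 and 2290 in HCT116-MT, and the other gave 3475 and 2748 against 2059 and 1908. On both probes each HCT116-WT array was above each HCT116-MT array, with log2 fold changes of -0.50 (SE 0.18) and -0.54 (SE 0.17) in the fit over probes. In the fit over genes the unadjusted p was 0.0423 and the adjusted p 0.515 with limma, and the 1.41-fold difference was below the fold threshold. Of the further 4 probes 1 was detected on replicate 1 of HCT116-WT and the others on no array, so they carry no comparison.

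*S100A16*, a broadly expressed family member, gave 1533 and 1274 in HCT116-WT against 1152 and 1011 in HCT116-MT. The lines were apart by 0.13 between their nearest arrays after normalization, and the log2 fold change of -0.23 (SE 0.19, 95% interval -0.70 to 0.24, adjusted p = 0.780 with limma) did not pass. *S100A14* is thus flanked in the cluster by a pair of genes, *S100A16* and *S100A13*, whose values were also lower on both HCT116-MT arrays but whose differences were below the fold threshold.

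*S100A4*, also called metastasin, binds nonmuscle myosin and loosens its filaments. Its intensity was 1126 and 1003 in HCT116-WT against 1253 and 540 in HCT116-MT. The highest and the lowest value were both HCT116-MT arrays, 1.05 apart after normalization, a distance exceeded by 1.65% of all genes, where the median distance in that line was 0.21. A further, dimmer probe had the same pattern, with 197 and 203 against 208 and 134, the last not detected. The log2 fold change was -0.23 (SE 0.36, 95% interval -1.12 to 0.65, adjusted p = 0.894 with limma), so these arrays do not show a direction for *S100A4*. It was -0.76 without replicate 1 of HCT116-MT and 0.29 without replicate 2.

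*S100A10* has lost calcium binding and is held in a complex with annexin A2 at the plasma membrane. It was bright on both of its probes: the brighter gave 16307 and 14192 in HCT116-WT against 15751 and 11151 in HCT116-MT, and the other 10502 and 8822 against 10826 and 7148. The lines overlapped on both, with replicate 2 of HCT116-MT the lowest of the 4 arrays. The log2 fold change was -0.13 (SE 0.22, 95% interval -0.66 to 0.40, adjusted p = 0.900 with limma), an interval that allows a fold difference of up to 1.58 lower.

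*S100A3*, best known from the hair cuticle, was dim but detected on all 4 arrays, at 414 and 297 in HCT116-WT against 279 and 312 in HCT116-MT. The lines overlapped, and the log2 fold change was -0.09 (SE 0.21, 95% interval -0.60 to 0.43, adjusted p = 0.943 with limma).

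*S100A2*, a p53-responsive gene of basal epithelial cells, was detected on 1 array only, at 248 on replicate 1 of HCT116-WT, whereas the other arrays gave 103, 110 and 120, not above the negative controls. *S100P*, which binds ezrin and the receptor AGER and is abundant in many carcinomas, gave 132 and 97.2 in HCT116-WT against 112 and 106 in HCT116-MT and was detected on no array. Neither was tested. A further 10 S100 genes on the array (*S100A1*, *S100A5*, *S100A7*, *S100A7A*, *S100A8*, *S100A9*, *S100A12*, *S100B*, *S100G* and *S100Z*), among them the granulocyte genes *S100A8* and *S100A9*, were detected on no array, so the detected S100 genes of these lines were those described here.

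**Figure D2:**
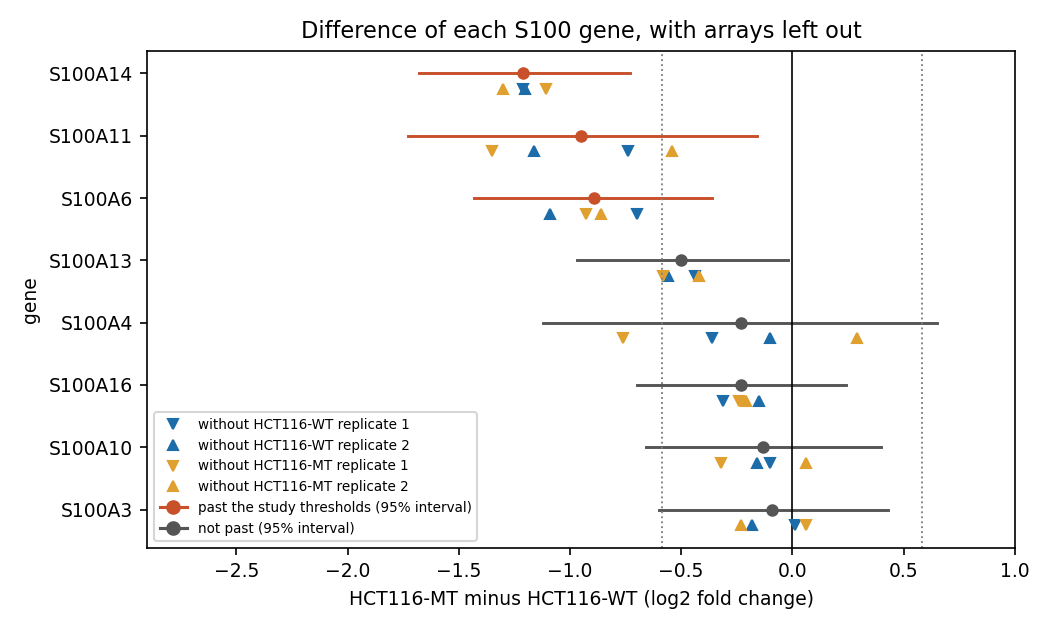
Difference between HCT116-MT and HCT116-WT on the log2 scale (horizontal axis) for the 8 tested S100 genes (vertical axis), with 95% intervals, the fold threshold as dotted lines, and triangles for the values with 1 array left out. *S100A14* stays between -1.30 and -1.11, and *S100A11* runs from -1.35 to -0.54.

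Across the 8 tested genes the mean was lower in HCT116-MT for all 8 (5942 of the 11875 genes, 50.0%, had the lower mean), with a median log2 fold change of -0.37 against 0.00 over all genes, and for 5 of them the lines did not overlap with HCT116-MT lower (19.1% of all genes). The signs of the small differences depended on single arrays: *S100A3* turned to 0.01 without replicate 1 of HCT116-WT and to 0.06 without replicate 1 of HCT116-MT, and *S100A10* and *S100A4* turned to 0.06 and 0.29 without replicate 2 of HCT116-MT. Over all 8 genes the median became -0.67 when replicate 1 of HCT116-MT was left out. As the genes were listed with earlier results known, no test over the group was made.

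The genes around the cluster were read in map order to see whether the lower S100 values extended along the chromosome. Of 35 tested neighbours that are not S100 genes, 15 on each side and 5 between S100 genes, 21 had the lower mean and 14 the higher, with a median of -0.03, and 1 of them passed as lower and 0 as higher (3.85% and 3.46% of all genes). This was *TUFT1*, tuftelin, at 1668 and 1448 in HCT116-WT against 1059 and 781 in HCT116-MT (fall of 0.63, SE 0.21, adjusted p = 0.471 with limma). *TUFT1* did not pass when replicate 2 of either line was left out (-0.52 for HCT116-WT and -0.49 for HCT116-MT) or with Student's t-test, where 0 neighbours passed as lower. The count was 3 when replicate 1 of HCT116-WT was left out and 2 after median scaling and without normalization. The 3 S100 genes that fell were not adjacent: *S100A11* lies beside *S100A10*, and *S100A6* and *S100A14* lie on either side of *S100A4*, *S100A3* and *S100A16*, which did not pass, and of *S100A5* and *S100A2*, which were not tested. *TCHH*, a fused-type S100 gene of the hair follicle, was the only tested gene of 7 of that kind. It gave 162 and 146 in HCT116-WT and was not detected in HCT116-MT (134 and 120), a bound of at least 1.04-fold lower that did not pass (adjusted p = 0.805 with limma).

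**Figure D3:**
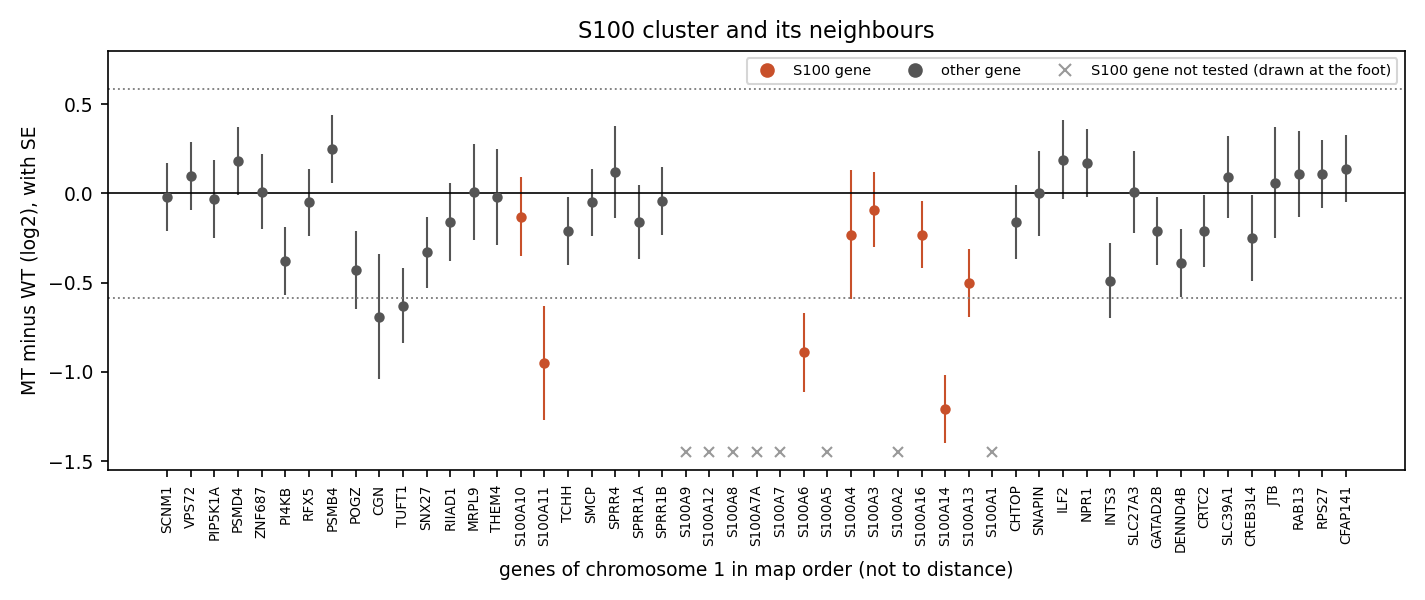
Log2 fold change with its SE (vertical axis) for genes of chromosome 1 in map order (horizontal axis, not to distance), S100 genes in orange and other genes in grey, with the fold threshold dotted. Among the 35 other genes only *TUFT1* passed the study thresholds, and crosses at the foot mark S100 genes that were not tested.

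Among genes of S100 partner proteins *AHNAK* had the lowest log2 fold change and *SUGT1* the highest. Of 32 listed partners 26 were tested, of which 4 passed as lower and 1 as higher (3.85% and 3.46% of all genes), and the median difference was -0.08 on the log2 scale. The 4 include *AGER*, which was detected in HCT116-WT alone and whose bound of at least 1.23-fold lies under the fold threshold. With the detection filter at 0.01 *AGER* was not tested, and 3 partners passed as lower. *AHNAK*, a giant scaffold protein that the S100A10-annexin A2 complex holds at the membrane, gave 3431 and 2968 in HCT116-WT against 634 and 925 in HCT116-MT. Its log2 fold change was -1.94 (SE 0.27, unadjusted p = 3.87e-04 and adjusted p = 0.159 with limma). *AHNAK* was past the thresholds in all 15 alternatives, with log2 fold changes from -2.28 to -1.19, the last as the mean of its kept probes. The kept *AHNAK* probes therefore did not give the same size of difference, and the brightest gave a larger one than their mean. In contrast *ANXA2*, which with *S100A10* forms that complex, gave 17362 and 17826 against 18078 and 16532 (difference 0.04 on the log2 scale, SE 0.19, adjusted p = 0.978 with limma). The other annexins that bind S100 proteins did not pass either: *ANXA1*, the partner of S100A11, had a log2 fold change of 0.05 (SE 0.21), *ANXA11*, a partner of S100A6, -0.39 (SE 0.21), *ANXA5* 0.22 (SE 0.23) and *ANXA6* 0.16 (SE 0.23).

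*SUGT1* and *CACYBP*, partners of S100A6 in the ubiquitin and chaperone pathways, had the higher mean in HCT116-MT. *STUB1* and *FKBP4*, further genes of these pathways among the partners, had log2 fold changes of 0.11 (SE 0.21) and 0.07 (SE 0.20). Their lines overlapped, and they did not pass. *SUGT1*, a co-chaperone of HSP90, gave 607 and 358 in HCT116-WT against 878 and 820 in HCT116-MT. The rise in log2 intensity was 1.04 (SE 0.22, adjusted p = 0.301 with limma) and passed in all 15 alternatives. *CACYBP* had 2841 and 1894 against 3063 and 2955 (log2 fold change 0.47, SE 0.19), which did not pass. For *SUGT1* and *CACYBP* the lines did not overlap, as for 2462 of all 11875 genes with HCT116-MT higher. *CTSB*, the lysosomal protease cathepsin B, fell by 0.68 (SE 0.21, adjusted p = 0.438 with limma), from 1714 and 1625 to 975 and 933. It was not past the thresholds with Student's t-test, with HCT116-WT replicate 2 left out (-0.50) or with either HCT116-MT array left out (-0.63 and -0.72). *SYT1*, a synaptotagmin that joins S100A13 in FGF1 release, fell by 0.66 (SE 0.26, adjusted p = 0.513 with limma), from 384 and 232 to 204 and 145. It was not past them with Student's t-test, with HCT116-WT replicate 1 left out (-0.44) or with HCT116-MT replicate 2 left out (-0.45).

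*AGER*, the cell surface receptor for several S100 proteins, was detected on both HCT116-WT arrays (177 and 188) and on neither HCT116-MT array (108 and 117), which gives a bound of at least 1.23-fold lower (adjusted p = 0.459 with limma). For such bounds the dim line is set, array by array, to its own value or to the faintest detected signal, whichever is larger. *AGER* did not pass with Student's t-test, with HCT116-WT replicate 2 left out or with either HCT116-MT array left out. With replicate 2 of HCT116-MT left out *AHNAK* alone of the partners passed as lower, and with replicate 1 of that line left out 2 did. With Student's t-test 1 did. *EZR*, the ezrin that S100P binds, and *MYH9*, the myosin that S100A4 binds, had log2 fold changes of -0.25 (SE 0.20) and -0.19 (SE 0.24) and did not pass.

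**Figure D4:**
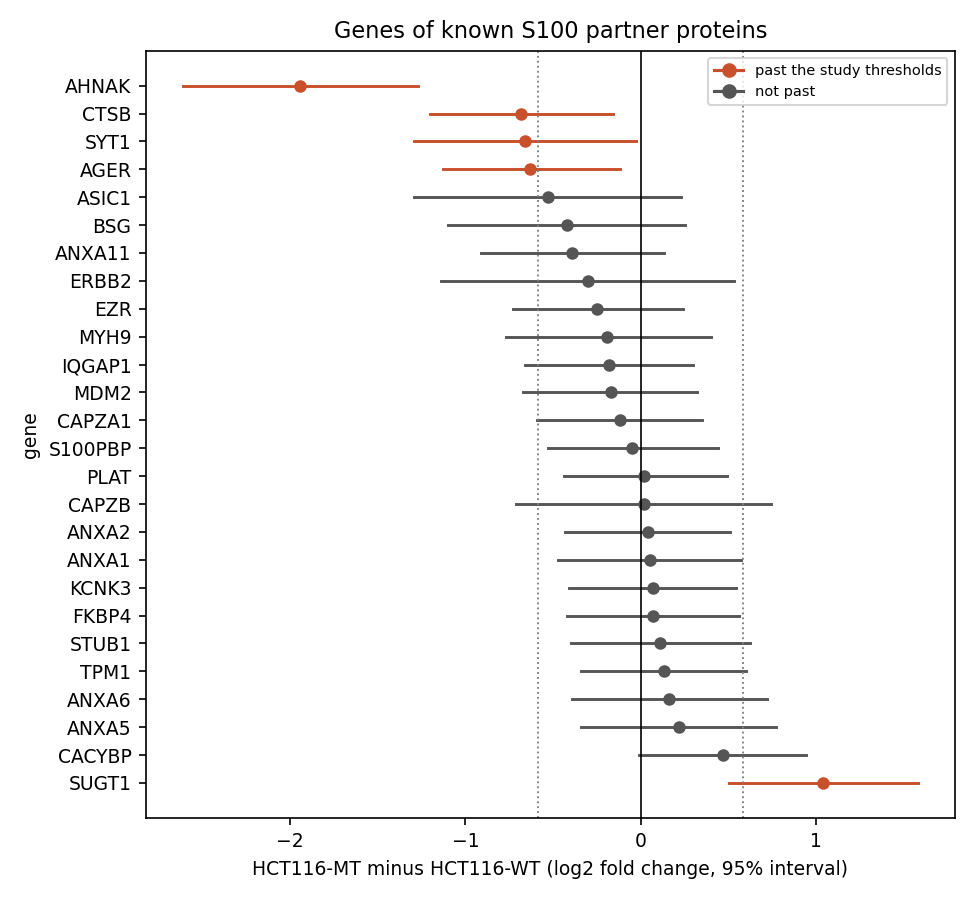
Log2 fold change of HCT116-MT against HCT116-WT with its 95% interval (horizontal axis) for 26 genes of S100 partner proteins (vertical axis), those past the study thresholds in orange and the threshold dotted. *AHNAK* is lowest at -1.94 and *SUGT1* highest at 1.04, while the annexins lie between -0.39 and 0.22.

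The 3 genes whose values over the 4 arrays lay closest to those of *S100A14*, each centred on its own mean, were *H2BC21*, a histone H2B gene with near-identical copies, *ARL14*, a small GTPase of vesicle transport, and *ESPN*, an actin-bundling protein of microvilli. Their distances were 0.111, 0.159 and 0.160 on the log2 scale. *H2BC21* gave 381 and 332 in HCT116-WT against 147 and 146 in HCT116-MT. *ESPN* gave 708 and 642 against 262 and 278. *ARL14* gave 240 and 206 and was not detected in HCT116-MT (97.5 and 95.5), a bound of at least 1.48-fold lower. With 4 arrays the likeness mostly says that *H2BC21* and *ESPN* also were about as much lower on both HCT116-MT arrays. For *ARL14* the size of the difference is known only as that bound.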

How the data were processed

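The authors hybridised 4 RNA samples, 2 of each subline, to Illumina HumanHT-12 v4 BeadChips and deposited the GenomeStudio intensity values without normalization between arrays, each beside a detection p-value. Of 47319 probe IDs shared with a series table that the authors also deposited, 26122, including all 17 S100 probes, carry other intensities there (relative tolerance 0.001). Between the first 2 probes of 3312 genes with such IDs, log2 intensities on 1 array correlated across genes at r = 0.434 in the table used here and at r = 0.243 in the series table, which was left out of every comparison.

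Log2 intensities were quantile-normalized. Kept were 20579 probes detected (p-value under 0.05) on 2 or more of the 4 arrays. Names came from the platform annotation (30112 probes with 1 symbol, 8 with several, 17201 with none), updated by gene ID to GRCh38.p14 for 30073. The brightest kept probe stood for each of 11875 genes. The lines were compared by limma (version 3.58.1, R 4.3.3), where the authors used another statistic, with Benjamini-Hochberg adjustment over all genes, or all kept probes for values given per probe. The number of arrays limits the precision, and chip positions are not given in the sources used here.

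Named were the 10 S100 genes, *CTNNB1*, the partners and neighbours past the thresholds, and the 3 genes nearest to the S100 gene of lowest p. Annexins and other partners that did not pass, and *TCHH*, were named after their values were seen. The members, lists and tests were chosen with earlier results of these data known. The fit was run on simulated data with log2 fold changes set in advance, and only their mean recovery was checked. That says nothing of false calls with so few arrays. Alternatives were 3 other scalings (median, cyclic loess, none), neqc (offset 16), 3 other detection filters (none, 0.01, both arrays of 1 line), the replicate block, a mean-variance trend, Student's t-test, the mean of kept probes, and each array left out.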

Additional observations from a re-analysis of the deposited data

How the results depend on the processing

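In all 15 alternatives 0 S100 genes passed as higher and 0 had an adjusted p under 0.05. The count of lower S100 genes was 3, but 2 with Student's t-test, with HCT116-WT replicate 1 left out and with HCT116-MT replicate 2 left out, where *S100A11* was lost. Over all genes, 411 passed as higher and 457 as lower. Median scaling gave 248 higher, no normalization 130 higher, and Student's t-test 152 higher and 175 lower. With single arrays left out the counts ran from 208 to 765 higher and from 224 to 837 lower. Log2 fold changes ran from -0.23 to 0.06 for *S100A3*, from -0.76 to 0.29 for *S100A4* and from -0.32 to 0.06 for *S100A10* with single arrays left out. They changed sign at 0.01 and 0.06 for *S100A3* (without replicate 1 of HCT116-WT and of HCT116-MT), and at 0.29 for *S100A4* and 0.06 for *S100A10* (without replicate 2 of HCT116-MT). Why was not tested. Whether the replicate numbers pair the samples is not given in the sources used here. Over the kept probes, deviations from the line means correlated at 0.054 between same-numbered arrays. That value cannot settle the pairing, because a shared effect on part of the genes could go unseen in it. With the replicate block 392 genes were higher and 526 lower, and S100 genes stayed at 3 lower. *S100A2* and *S100P* could not be compared, because their signal was not above the negative controls on at least 2 arrays.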
